A study of Mus musculus with 16 samples.

Results

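The radiation response of LSK cells was compared with that of MP cells from mouse bone marrow. LSK cells (Lin-Sca1+c-Kit+) include the blood-forming stem cells together with early multipotent progenitors, whereas MP cells (Lin-Sca1-c-Kit+) are committed myeloid progenitors, a mixed set of granulocyte, monocyte, megakaryocyte and erythroid precursors. The comparison used 16 of the 16 arrays of the series: 4 arrays each of unirradiated LSK, irradiated LSK, unirradiated MP and irradiated MP cells. In each of these 4 sets, 2 arrays came from wild-type (WT) C57BL/6J mice and 2 from Parp-2-/- mice of the same background, which lack the DNA damage sensor Parp-2. Irradiated cells were taken 2.5 hours after 5 Gy of gamma radiation. Each array held the RNA of 1 pool of at least 3 mice, so values are averages over mice, and neither the age and sex of the mice nor how the Parp-2 allele was made is given in the sources used here. For every row the irradiated minus unirradiated change was taken in each cell type, averaged over both genotypes with genotype as a covariate, and the MP change was subtracted from the LSK change. A positive difference in response therefore means that a gene moved further up, or less far down, in LSK cells.

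Ionising radiation breaks DNA, and the kinases ATM and ATR then stabilise p53. The p53 protein switches on genes for cell cycle arrest, DNA repair and apoptosis, and it lowers mitotic genes indirectly through the DREAM complex, which binds CHR elements in their promoters. Haematopoietic tissue is among the most radiosensitive of the body, and stem cells and committed progenitors are known to differ in how readily they arrest, repair or die. Erythroid precursors depend on the transcription factors GATA1 and KLF1 and on erythropoietin.

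Both cell types responded, largely in the same direction. Of 22961 rows tested, 957 passed in LSK cells (4.17%: 525 rose, 2.29%, and 432 fell, 1.88%) and 490 in MP cells (2.13%: 349 rose, 1.52%, and 141 fell, 0.614%), at an adjusted p under 0.05 (limma, Benjamini-Hochberg). There were 222 rows that rose in both, 61 that fell in both and 0 called in opposite directions. The difference in response passed in 0 of 22961 rows (0%), while 1479 rows (6.44%) had an unadjusted p under 0.05, 735 (3.2%) with a positive and 744 (3.24%) with a negative difference; the smallest adjusted p was 0.057. No gene is therefore shown to respond differently in the main test, and the differences below are given as values with their 95% intervals.

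The counts of called rows do not order the cell types. They rest on 1 error variance shared by both, and LSK pools of a group differed more than MP pools, with an SD of the pool difference of 0.44 to 0.50 log2 units in LSK groups and 0.23 to 0.32 in MP groups. With the 8 arrays of each cell type fitted alone, 208 rows passed in LSK cells and 1313 in MP cells, the reverse order. All 208 were among the 957, and 486 of the 490 MP rows were among the 1313. Sizes were compared instead. The 222 rows that rose in both had a median rise of 1.09 log2 units in LSK and 1.09 in MP cells, and the rise was the larger one in LSK cells for 94 and in MP cells for 128. The 61 rows that fell in both had medians of -1.15 in LSK and -0.96 in MP cells, and the fall was the larger one in LSK cells for 40 and in MP cells for 21. Of the 1164 rows called in either cell type the change was larger in LSK cells for 806 and in MP cells for 358, a split that, unlike those of rows called in both, also carries which cell type had more calls. Over all rows the LSK and MP changes, which share no array, correlated at r = 0.55; rows are not independent replicates.

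**Figure D1:**
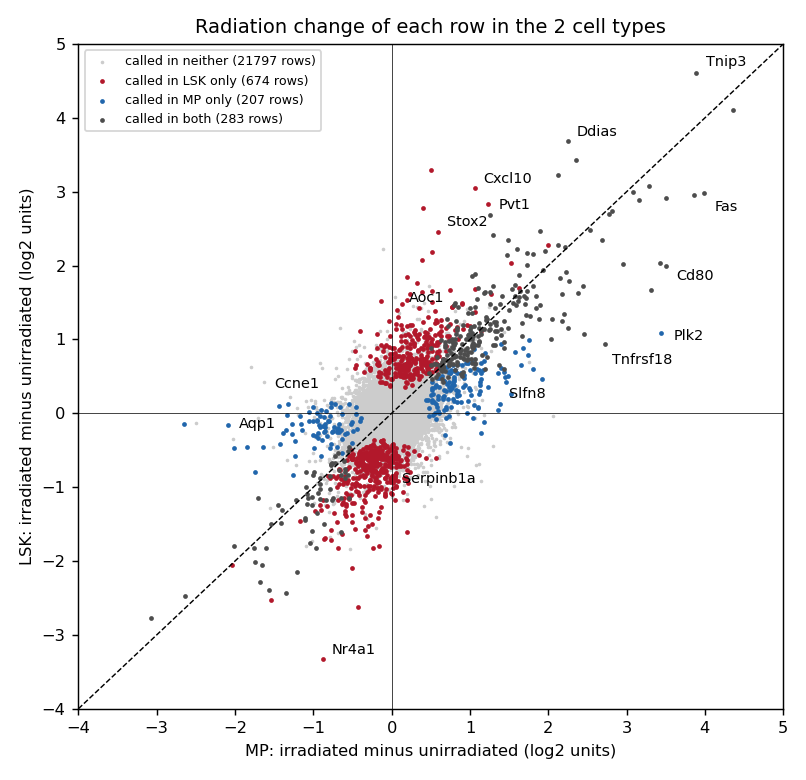
Each point is 1 of 22961 rows, with its irradiated minus unirradiated change in MP cells on the x axis and in LSK cells on the y axis (log2 units, 4 arrays per mean), coloured by the cell types in which it passed an adjusted p under 0.05. The dashed line marks equal change: Plk2, Tnfrsf18 and Cd80 lie below it and Ddias, Cxcl10, Pvt1 and Aoc1 above it, and Tnfrsf18, Cd80, Ddias and Pvt1 are among the 283 rows called in both cell types.

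When the adjustment was made only over rows whose change averaged over both cell types was at least 0.5 log2 units, 53 of 1238 passed for the difference in response, and 37 of 260 did at a minimum of 1 log2 unit. Both limits were chosen after seeing the data, they leave out rows that moved in opposite directions, and a row can enter through its change in 1 cell type, so these counts support no gene named below.

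Genes whose rise was larger in LSK cells are given first. Aoc1, which encodes the diamine oxidase that degrades histamine and putrescine, had the smallest p. In the order WT pools 1 and 2 and Parp-2-/- pools 1 and 2, its log2 level was 3.83, 3.77, 3.86 and 3.58 in unirradiated LSK cells and 5.29, 5.04, 5.11 and 4.83 after irradiation. In MP cells it was 3.64, 3.71, 3.54 and 3.43 before and 3.83, 3.44, 3.6 and 3.79 after. The irradiated LSK arrays lay above all 12 others, which did not separate by irradiation. Aoc1 rose 2.48-fold in LSK cells (1.31 ± 0.12 log2 units, SE, adjusted p = 9.5e-06) and differed by 0.08 ± 0.12 in MP cells (adjusted p = 0.97). The difference in response was 1.23 (95% interval 0.87 to 1.59, adjusted p = 0.057). The other 3 sets of arrays were below their array medians, where a level is not shown to be above background, so the LSK fold is a lower bound. Pool 2 of irradiated Parp-2-/- LSK cells, at 4.83, was also just below its array median of 4.84.

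Nfe2l2 encodes NRF2, the master regulator of antioxidant genes. It read 7.94, 7.90, 8.20 and 7.63 in unirradiated LSK cells and 8.82, 9.0, 9.02 and 9.07 after irradiation, against 9.0, 8.95, 8.96 and 9.05 and then 9.23, 9.21, 9.08 and 9.12 in MP cells. Irradiated LSK levels overlapped those of unirradiated MP cells but stayed below every irradiated MP array: the LSK minus MP difference was -1.07 log2 units before (adjusted p = 4.1e-05) and -0.18 after (adjusted p = 0.24). The LSK rise was 1.06 ± 0.11 (adjusted p = 4.1e-05), and the difference in response was 0.89 (0.55 to 1.23, adjusted p = 0.17). Of the 22 measured NRF2 target genes 0 were called in either cell type. Among all rows 4.17% were called in LSK and 2.13% in MP cells, so 0 of 22 is near that share. The medians of the 22 were -0.04 in LSK and 0.03 in MP cells, beside -0.01 and -0.03 over all rows. Nox1, a catalytic subunit of NADPH oxidase that makes superoxide, was at 3.54, 3.69, 3.41 and 3.54 and then 5.26, 4.72, 4.56 and 4.38 in LSK cells. All 8 MP arrays read between 3.40 and 3.77, below every irradiated LSK array. Its LSK rise was 1.18 ± 0.13 (adjusted p = 8.2e-05), from a dim start, and its difference in response was 0.99 (0.59 to 1.40, adjusted p = 0.17). Of the irradiated LSK arrays only WT pool 1 was above its array median, 4.88. The levels of 4.72, 4.56 and 4.38 were below their array medians of 4.85, 4.89 and 4.84, so they are not shown to be above background.

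Ccne1 differed through a fall in MP cells. It encodes cyclin E1, which drives entry into S phase with CDK2. MP levels were 6.71, 7.72, 7.67 and 7.68 before and 6.22, 5.98, 6.32 and 5.99 after irradiation, and LSK levels were 5.45, 5.88, 6.03 and 6.08 before and 5.78, 5.47, 6.30 and 6.38 after. The MP groups did not overlap, and after irradiation the cell types did. Ccne1 fell by 1.32 ± 0.19 log2 units in MP cells (adjusted p = 0.00096) and differed by 0.12 ± 0.19 in LSK cells (adjusted p = 0.84), a difference in response of 1.43 (0.86 to 2.01, adjusted p = 0.17). Of the 44 measured genes of DNA replication and S phase, Ccne1 included, 1 fell in each cell type, with medians of -0.04 and -0.03. Among all rows 1.88% fell in LSK and 0.614% in MP cells.

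Irf2bp2, a transcriptional corepressor, Dtwd1, a tRNA-modifying enzyme, and Tmem14c, a mitochondrial porphyrin transporter needed for haem synthesis, also rose in LSK cells, by 0.84, 1.12 and 0.61 log2 units (adjusted p = 0.015, 0.0062 and 0.017). With the LSK arrays fitted alone these 3 adjusted p-values were 0.080, 0.053 and 0.091. Their MP changes were -0.47, -0.41 and -0.47 and did not pass; with the MP arrays fitted alone Tmem14c did (adjusted p = 0.014). Differences in response were 1.31 (0.76 to 1.85), 1.52 (0.88 to 2.16) and 1.08 (0.67 to 1.48), with adjusted p of 0.18, 0.18 and 0.17. Tor1aip2, an activator of the endoplasmic reticulum ATPase torsin, fell by 0.54 in MP cells (adjusted p = 0.0028) and read 0.12 in LSK cells (difference 0.66, 0.39 to 0.93, adjusted p = 0.17).

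Among genes with the larger rise in MP cells, Slfn8 had the smallest p. It belongs to the Schlafen family, whose members are known for roles in haematopoietic cell quiescence and in the interferon response. A promoter of Slfn8 is shown because it holds an interferon response motif, in capitals. The motif is the letters GAAA and GAAA with any 2 bases between them on either strand. The sequence is 1 of 2 RefSeq windows listed for the gene, from 250 bases before to 50 after the start. It lies on the minus strand of GRCm38.p6 at chr11:83020673-83020972, with the motif beginning at position -136.
Slfn8: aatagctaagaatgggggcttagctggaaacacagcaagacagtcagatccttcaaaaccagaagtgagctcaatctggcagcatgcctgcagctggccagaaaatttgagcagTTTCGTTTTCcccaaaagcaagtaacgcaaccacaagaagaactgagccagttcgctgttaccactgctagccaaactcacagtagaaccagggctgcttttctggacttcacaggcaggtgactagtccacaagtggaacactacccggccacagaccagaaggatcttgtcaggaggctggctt
Of 15613 tested genes with a listed promoter, 607 (3.89%) held that motif in any of their windows. In MP cells Slfn8 rose from 5.68, 5.64, 5.6 and 5.93 to 7.20, 7.45, 6.84 and 6.87. In LSK cells it was 6.92, 6.65, 6.82 and 6.95 before and 7.0, 7.29, 6.83 and 6.75 after, levels that overlap each other and those of irradiated MP cells. The MP rise was 2.60-fold (1.38 ± 0.14, adjusted p = 3.4e-05), the LSK difference was 0.13 ± 0.14 (adjusted p = 0.73), and the difference in response was -1.25 (-1.68 to -0.82, adjusted p = 0.13).

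Interferon-stimulated genes as a list rose in both cell types. Of 32 measured, 8 rose and 0 fell in each cell type, while 2.29% of all rows rose in LSK and 1.52% in MP cells. Medians were 0.42 in LSK and 0.44 in MP cells beside -0.01 and -0.03 over all rows. Fitted alone, 2 passed in LSK and 14 in MP cells. Their median difference in response was 0.01, and -0.12 to 0.11 when each array was left out. Mx1, an antiviral GTPase, rose by 1.72 in LSK and 2.44 in MP cells (adjusted p = 5.3e-06 and 1.4e-07), from levels below the array medians in both, and Mx2 rose by 2.28 and 2.13 (adjusted p = 5.3e-06 and 9.8e-06). Usp18, which removes the interferon-induced ISG15 tag from proteins, rose in MP cells by 1.10 (adjusted p = 0.038) and read 0.08 in LSK cells (difference -1.01, adjusted p = 0.60). That difference was -0.30 in WT and -1.73 in Parp-2-/- arrays, and -0.66 without pool 2 of irradiated Parp-2-/- LSK cells. Of the 25 members with a promoter, 56.0% held the motif shown for Slfn8.

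Cd80 and Tnfrsf18 rose in both cell types and further in MP cells. Cd80 is a ligand for the T cell receptors CD28 and CTLA4. Its LSK levels were 4.02, 4.71, 4.27 and 4.33 before and 6.63, 6.38, 5.90 and 6.44 after irradiation, and its MP levels were 4.24, 4.29, 4.55 and 4.07 before and 7.59, 8.02, 7.68 and 7.86 after. Starting levels overlapped and lay below the array medians, and every irradiated MP array was above every irradiated LSK array. The rise was at least 4.01-fold in LSK and 11.3-fold in MP cells (2.00 ± 0.17 and 3.50 ± 0.17, adjusted p = 5.3e-06 and 1.8e-08), a difference in response of -1.49 (-2.01 to -0.98, adjusted p = 0.13). The gene's other row gave -0.39, so the size depends on the probes. Tnfrsf18, the co-stimulatory receptor GITR, read 5.93, 5.79, 5.24 and 6.30 and then 6.61, 7.36, 6.37 and 6.67 in LSK cells. In MP cells it went from 5.40, 4.99, 5.03 and 5.16 to 7.46, 7.99, 7.67 and 8.34. Before irradiation the cell types overlapped, and after it every MP array exceeded every LSK array. The MP rise was 6.59-fold (2.72 ± 0.24, adjusted p = 8e-06) and the LSK rise 1.92-fold (0.94 ± 0.24, adjusted p = 0.041; 0.18 with LSK arrays alone). The difference in response was -1.78 (-2.51 to -1.05, adjusted p = 0.17).

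Plk2 showed the widest gap of the p53 targets. It encodes a polo-like kinase that p53 induces after damage. Unirradiated LSK cells were at 7.83, 6.98, 8.17 and 7.13 and unirradiated MP cells at 5.78, 4.91, 6.26 and 4.42. After irradiation they were at 8.32, 9.07, 8.43 and 8.66 and at 8.72, 8.94, 8.56 and 8.91. The starting groups did not overlap, with LSK cells 2.18 log2 units higher (adjusted p = 0.00086), and the irradiated groups did. Plk2 rose 10.9-fold in MP cells (3.44 ± 0.35, adjusted p = 2.5e-05) and differed by 1.09 ± 0.35 in LSK cells (adjusted p = 0.10), a difference in response of -2.35 (-3.39 to -1.31, adjusted p = 0.19).

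Ddias and Pvt1 had the opposite pattern, a lower start and a larger rise in LSK cells. Ddias, a gene of DNA damage-induced apoptosis suppression, went from 6.83, 6.70, 6.90 and 5.46 to 9.91, 10.20, 10.19 and 10.31 in LSK cells, and from 7.73, 7.88, 8.05 and 8.44 to 10.27, 10.27, 10.47 and 10.11 in MP cells. End levels overlapped and starting levels did not. The rise was 12.8-fold in LSK and 4.77-fold in MP cells (3.68 ± 0.26 and 2.25 ± 0.26, adjusted p = 7.6e-07 and 8.4e-05), with a difference in response of 1.43 (0.66 to 2.19, adjusted p = 0.30). The long noncoding RNA gene Pvt1, a neighbour of Myc with p53-bound sites, was at 4.37, 5.47, 4.2 and 4.38 and then 7.13, 6.98, 7.29 and 7.78 in LSK cells. Its MP levels were 5.55, 5.87, 5.63 and 5.91 before and 6.66, 6.69, 7.32 and 7.30 after. It rose by 2.69 in LSK and 1.25 in MP cells (adjusted p = 1.2e-05 and 0.013), with a difference of 1.44 (0.68 to 2.20, adjusted p = 0.28). Without pool 2 of unirradiated WT LSK cells that difference was 1.78. Another row of the gene gave 0.04, but its 4 sets of arrays were all below the array medians.

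**Figure D2:**
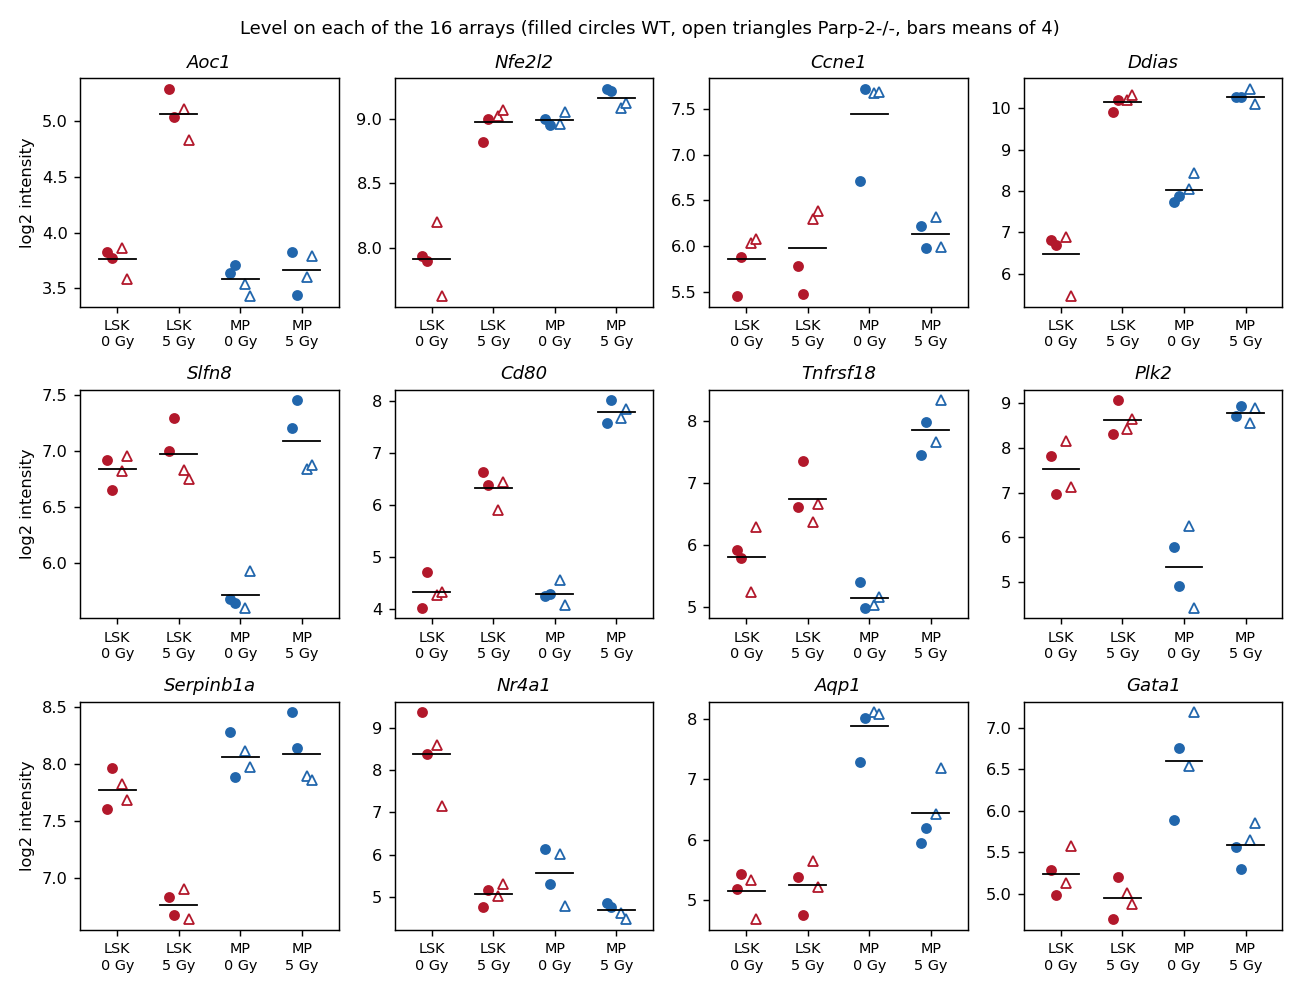
Log2 intensity of 12 genes on the 16 arrays, in LSK (red) and MP (blue) cells at 0 Gy and 5 Gy, with WT pools as filled circles, Parp-2-/- pools as open triangles and the mean of 4 arrays as a bar. Irradiated levels of Ddias and Plk2 overlap in the 2 cell types after starts that did not, Cd80 and Tnfrsf18 end higher in MP cells, and the Serpinb1a groups separate in LSK and overlap in MP cells.

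Targets of p53 rose in both cell types. Of 44 measured targets of the arrest and feedback list, 19 rose and 1 fell in LSK cells and 21 rose and 0 fell in MP cells. Median changes were 0.63 and 0.84. Over all rows 2.29% rose and 1.88% fell in LSK cells, and 1.52% and 0.614% in MP cells. Fitted alone, 15 and 24 of the list rose. The list's median difference in response was -0.15, with 14 of 44 above 0, beside 11914 of 22961 over all rows. Mdm2, the ubiquitin ligase that limits p53, rose by 1.91 ± 0.10 in LSK and 2.22 ± 0.10 in MP cells (adjusted p = 7.4e-08 and 1.5e-08), and its difference of -0.30 (-0.61 to 0.00, adjusted p = 0.79) is small beside either rise. Phlda3, an inhibitor of AKT, rose by 2.70 and 2.77, and Polk, a translesion polymerase, by 2.74 and 2.81. Ccng1, a cyclin of p53 feedback, rose by 2.22 in LSK and 1.60 in MP cells, and Zmat3, an RNA-binding p53 effector, by 1.25 and 2.18.

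Of 21 measured apoptosis targets of p53, 10 rose and 0 fell in each cell type, while 2.29% of all rows rose in LSK and 1.52% in MP cells. The list's medians were 0.42 in LSK and 0.54 in MP cells. Fitted alone, 7 and 12 targets rose. Fas, the death receptor, rose by 2.98 ± 0.24 in LSK and 3.99 ± 0.24 in MP cells (adjusted p = 3.2e-06 and 1.4e-07) from levels below the array medians in both. Its difference in response was -1.01 (-1.74 to -0.28, adjusted p = 0.54). Tnfrsf10b, the TRAIL receptor, rose by 2.89 and 3.16, and Eda2r, an ectodysplasin receptor, by 3.00 and 3.08. Perp, a membrane effector of apoptosis, rose by 1.13 in MP cells (adjusted p = 0.0022) and read 0.42 in LSK cells (adjusted p = 0.27), a difference of -0.71 (-1.26 to -0.16, adjusted p = 0.59). Of 10 measured pro-survival members of the BCL2 family and inhibitors of apoptosis, 1 fell and 0 rose in LSK cells. Among all rows 1.88% fell and 2.29% rose in LSK cells. The gene was Mcl1, which fell by 0.85 (adjusted p = 0.0061, and 0.091 with LSK arrays alone) against -0.25 in MP cells.

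Mitotic genes fell in both cell types. A promoter of Prc1, which bundles spindle microtubules, is shown for its CHR element (TTTGAA) and CCAAT box (CCAAT). Both were searched on either strand and are given in capitals. The RefSeq window, 1 of 2 listed for the gene, lies on the plus strand of GRCm38.p6 at chr7:80294201-80294500. Its CCAAT box is at -37 and its CHR element at -5 from the start.
Prc1: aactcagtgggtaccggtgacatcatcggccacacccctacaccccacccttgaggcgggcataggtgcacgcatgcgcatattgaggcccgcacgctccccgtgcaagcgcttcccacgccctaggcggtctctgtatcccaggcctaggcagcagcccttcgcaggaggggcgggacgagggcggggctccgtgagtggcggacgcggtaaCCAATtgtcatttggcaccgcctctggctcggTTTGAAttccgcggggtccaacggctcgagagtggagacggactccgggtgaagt
Of 42 genes of the list with a listed promoter, 31 (73.8%) held the CHR letters in any of their windows, beside 17.3% of all such tested genes. CCAAT was held by 83.3%, beside 41.7%. Of 48 measured genes, 31 fell and 0 rose in LSK cells and 20 fell and 0 rose in MP cells, with median changes of -0.85 and -0.61. Among all rows 1.88% fell in LSK and 0.614% in MP cells. Fitted alone, 17 of the 48 fell in LSK and 32 in MP cells, so the counts do not rank the cell types. The median difference in response was -0.18 (-0.10 in WT and -0.37 in Parp-2-/- arrays), and 10 of 48 were above 0, beside 11914 of 22961 over all rows. Leaving out each array in turn gave medians of -0.22 to -0.11 (without pool 1 of irradiated Parp-2-/- LSK cells) and 7 to 17 above 0. Prc1 itself fell by 2.15 in LSK and 1.21 in MP cells (adjusted p = 0.00011 and 0.017), a difference of -0.95 (-1.71 to -0.18, adjusted p = 0.63) that turned sign on the linear scale. Plk1, the central mitotic kinase, fell by 2.05 and 1.65 (adjusted p = 2.8e-06 and 2.1e-05), and Cenpf, a kinetochore protein, by 1.48 and 1.41 (adjusted p = 3.2e-05 and 5.3e-05). The mean log2 level of the 48 genes was 7.21 to 7.50 in unirradiated and 6.31 to 6.61 in irradiated LSK arrays, and 7.71 to 7.93 and 7.06 to 7.32 in MP arrays.

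The immediate early genes, which growth factor and stress signals switch on within minutes, fell in both cell types, and Nr4a1 fell furthest in LSK cells. Of 43 measured, 22 fell and 1 rose in LSK cells and 12 fell and 0 rose in MP cells, with medians of -0.85 and -0.56. Fitted alone, 11 and 19 fell. Among all rows 1.88% fell in LSK and 0.614% in MP cells. Nr4a1, an orphan nuclear receptor known to restrain stem cell proliferation, read 9.39, 8.39, 8.60 and 7.16 in unirradiated LSK cells and 4.75, 5.16, 5.02 and 5.31 after irradiation. MP levels were 6.13, 5.29, 6.01 and 4.77 before and 4.86, 4.76, 4.62 and 4.46 after. Unirradiated LSK arrays were the highest of all and spread widely, from 7.16 to 9.39, and the 3 other sets lay lower and closer together. The LSK fall was 3.33 ± 0.35 (adjusted p = 3.7e-05), the MP change was -0.88 ± 0.35 (adjusted p = 0.34), and the difference in response was -2.45 (-3.50 to -1.40, adjusted p = 0.19). Its relative Nr4a2 changed by -2.09 in LSK (adjusted p = 0.0074; 0.11 with LSK arrays alone) and -0.50 in MP cells. Dusp6, a phosphatase that dampens ERK, fell by 1.53 in LSK cells (adjusted p = 0.00044) and read -0.30 in MP cells (difference -1.23, -1.86 to -0.61, adjusted p = 0.24). Tiparp, a mono-ADP-ribosyltransferase, fell by 2.43 and 1.35 (adjusted p = 1e-05 and 0.003), a difference of -1.08 (adjusted p = 0.41). Fos and Klf6, both transcription factors, fell in both cell types, by 1.82 and 1.61 and by 2.47 and 2.64. The list's median difference was -0.35 in WT and -0.05 in Parp-2-/- arrays, and -0.10 over both; leaving out each array gave -0.23 to -0.01 (the latter without pool 1 of unirradiated Parp-2-/- LSK cells).

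Serpinb1a, an inhibitor of neutrophil serine proteases, fell in LSK cells. Its LSK levels went from 7.61, 7.97, 7.83 and 7.69 to 6.84, 6.68, 6.91 and 6.64, while MP levels were 8.28, 7.89, 8.12 and 7.98 and then 8.46, 8.14, 7.90 and 7.86. The LSK groups did not overlap and the MP groups did. The fall was 1.01 ± 0.14 (adjusted p = 0.00038), the MP difference was 0.02 ± 0.14 (adjusted p = 0.99), and the difference in response was -1.03 (-1.44 to -0.62, adjusted p = 0.17). Usf2, an E-box transcription factor, fell by 0.91 in LSK cells (adjusted p = 4.1e-05) and read -0.19 in MP cells (difference -0.72, -1.01 to -0.42, adjusted p = 0.17). Hnmt, which methylates histamine, fell by 0.61 in LSK cells (adjusted p = 0.036; 0.15 with LSK arrays alone) and read 0.56 in MP cells (adjusted p = 0.081; 0.048 with MP arrays alone), a difference of -1.17 (-1.63 to -0.71, adjusted p = 0.17), with 3 of its 4 sets of arrays below the array medians. Sh3yl1, a phosphoinositide-binding adaptor, rose by 1.81 in MP cells (adjusted p = 8.1e-06) and read 0.60 in LSK cells (adjusted p = 0.051). The difference was -1.21 (-1.70 to -0.72, adjusted p = 0.17). Both LSK sets and the unirradiated MP set of Sh3yl1 were below the array medians. Irradiated WT MP pool 2 was also below its median of 4.76, for Sh3yl1 (4.66) and Hnmt (4.67). So were irradiated Parp-2-/- MP pool 1 for Sh3yl1 (4.61 against 4.8) and pool 2 for Hnmt (4.69 against 4.78). Cracr2a, a calcium channel regulator, fell by 0.64 in LSK cells (adjusted p = 0.0018; 0.088 with LSK arrays alone; difference -0.75, adjusted p = 0.17), and its other row gave a difference of 0.03.

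Erythroid markers stood lower after irradiation in MP cells. In unirradiated MP arrays the mean log2 level of the 19 measured markers was 6.67 to 7.40, in irradiated MP arrays 5.99 to 6.85, and in LSK arrays 5.24 to 5.53 before and 5.26 to 5.36 after. The MP ranges overlapped because pool 1 of unirradiated WT cells was at 6.67 and pool 2 of irradiated Parp-2-/- cells at 6.85; within each genotype they did not. In MP cells 5 of 19 fell and 0 rose (7 fell with MP arrays alone), with a median of -0.82, while 0.614% of all rows fell. In LSK cells 1 of the 19 fell, with a median of 0.03, while 1.88% of all rows fell. All 19 differences in response were above 0, with a median of 0.71 (0.71 in WT and 0.61 in Parp-2-/- arrays), beside a median of 0.01 and 11914 of 22961 above 0 over all rows; 0 of 19 passed. In WT arrays 19 of 19 and in Parp-2-/- arrays 18 of 19 were above 0. Leaving out each array in turn gave medians of 0.54 to 0.84 with 17 to 19 above 0. In bulk samples fewer cells of a type and less RNA per cell cannot be told apart, and LSK cells began near the low end of the scale: Rhag, Rhd and Cldn13 lay below the array medians in both LSK sets.

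**Figure D3:**
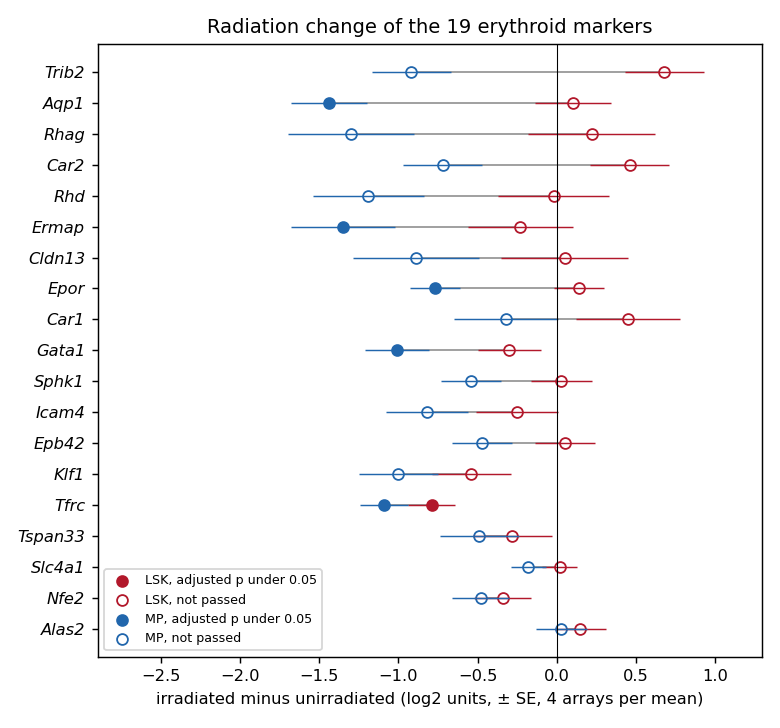
Irradiated minus unirradiated change (log2 units, points with SE, 4 arrays per mean) of 19 erythroid markers in LSK (red) and MP (blue) cells, filled where the adjusted p was under 0.05 and ordered by the difference in response. The MP point lies to the left of the LSK point for all 19 genes, with medians of -0.82 and 0.03.

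Aqp1, the water channel of red cells, gave 7.28, 8.01, 8.11 and 8.08 in unirradiated MP cells and 5.95, 6.19, 6.42 and 7.18 after irradiation. LSK arrays were at 5.18, 5.43, 5.33 and 4.68 before and 5.38, 4.76, 5.65 and 5.22 after. The MP groups did not overlap, and the LSK groups did. Aqp1 fell by 1.44 ± 0.24 in MP cells (adjusted p = 0.0036) and read 0.10 ± 0.24 in LSK cells (adjusted p = 0.90), a difference of 1.54 (0.80 to 2.27, adjusted p = 0.21). Gata1, the master transcription factor of the lineage and named after its values were seen, was at 5.89, 6.76, 6.54 and 7.19 and then 5.56, 5.30, 5.65 and 5.85 in MP cells. In LSK cells it was at 5.29, 4.98, 5.13 and 5.57 and then 4.69, 5.20, 5.01 and 4.88. The MP groups were separate by a narrow margin. Its MP fall was 1.01 ± 0.20 (adjusted p = 0.012), the LSK change was -0.30 ± 0.20 (adjusted p = 0.54), and the difference was 0.71 (0.10 to 1.32, adjusted p = 0.67). Gfi1b, a transcriptional repressor of erythroid and megakaryocyte development, placed here among the stem cell markers, fell from 7.34, 7.68, 7.63 and 7.78 to 6.21, 6.28, 6.39 and 6.47 in MP cells. In LSK cells it was 6.93, 7.15, 6.54 and 7.16 before and 6.87, 6.72, 6.59 and 6.49 after. The separation in MP cells was complete. The MP fall was 1.27 ± 0.15 (adjusted p = 9.5e-05), the LSK change was -0.28 ± 0.15 (adjusted p = 0.39), and the difference was 0.99 (0.55 to 1.43, adjusted p = 0.19).

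The promoters of Epor, the erythropoietin receptor, and Icam4, a red cell adhesion glycoprotein, are shown because each holds the GATA letters AGATAA, in capitals, which read ttatct on the other strand. They are RefSeq windows of GRCm38.p6, Epor on the minus strand at chr9:21963527-21963826 with the motif at -54, and Icam4 on the plus strand at chr9:21029182-21029481 with the motif at -43.
Epor: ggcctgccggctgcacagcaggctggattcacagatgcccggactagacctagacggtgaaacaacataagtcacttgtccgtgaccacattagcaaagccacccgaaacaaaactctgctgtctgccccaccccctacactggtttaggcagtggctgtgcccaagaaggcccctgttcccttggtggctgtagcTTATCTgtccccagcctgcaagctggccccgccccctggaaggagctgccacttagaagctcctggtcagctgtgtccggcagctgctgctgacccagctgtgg
Icam4: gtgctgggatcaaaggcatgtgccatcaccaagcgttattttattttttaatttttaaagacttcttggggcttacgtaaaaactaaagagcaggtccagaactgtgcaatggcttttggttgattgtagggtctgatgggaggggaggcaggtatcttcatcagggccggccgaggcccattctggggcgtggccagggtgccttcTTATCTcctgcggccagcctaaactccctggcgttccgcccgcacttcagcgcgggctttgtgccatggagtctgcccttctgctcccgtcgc
The motif, added after seeing the data, was held by 6 of 14 genes of the list with a listed promoter (42.9%). Of all such tested genes 10.8% held it in any of their windows. The KLF1 letters CCACACCC were in 0 of the 14. Epor levels in MP cells were 5.25, 5.68, 5.82 and 5.63 before and 4.78, 4.79, 4.83 and 4.93 after irradiation, and in LSK cells 4.25, 4.58, 4.06 and 4.40 and then 4.12, 4.85, 4.57 and 4.32. Irradiated MP arrays sat between unirradiated MP arrays and most LSK arrays. The unirradiated LSK levels were below their array medians of 4.89, 4.92, 4.86 and 4.87, so they are not shown to be above background. Epor fell by 0.77 ± 0.16 in MP cells (adjusted p = 0.018) and read 0.14 ± 0.16 in LSK cells, a difference of 0.91 (0.42 to 1.39, adjusted p = 0.30). Icam4 read -0.82 in MP and -0.25 in LSK cells, and neither passed (MP adjusted p = 0.001 with MP arrays alone).

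The other 2 falls of the list in MP cells were in Ermap, an erythroblast membrane protein (1.35, adjusted p = 0.042), and Tfrc, the transferrin receptor that takes up iron (1.09, adjusted p = 0.00045). Tfrc was also the 1 marker that fell in LSK cells, by 0.79 (adjusted p = 0.0052; 0.088 with LSK arrays alone). Trib2, a pseudokinase, had the largest difference of the list, 1.60 (0.83 to 2.37, adjusted p = 0.21), from 0.68 in LSK and -0.92 in MP cells, neither of which passed (MP adjusted p = 0.088, and 0.0073 with MP arrays alone). Klf1 read -1.0 in MP cells (adjusted p = 0.052), while Alas2, the erythroid enzyme of haem synthesis, read 0.03. Granulocyte and monocyte progenitor markers, the other main content of MP cells, had 0 of 23 called in MP cells (3 rose with MP arrays alone). Among all rows 2.13% were called in MP cells, so 0 of 23 is near that share. These markers had a median MP change of 0.15 and mean levels of 7.92 to 8.42 before and 7.95 to 8.47 after. Of the megakaryocyte and platelet markers, 2 of 12 fell in MP cells, beside 0.614% of all rows. The list's median difference in response was 0.00 (-0.07 to 0.13 when each array was left out).

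Ribosome biogenesis and MYC target genes lay slightly higher in the LSK than in the MP response. Of 25 measured, 3 rose and 0 fell in LSK cells and 1 rose and 1 fell in MP cells (2 rose in LSK, 1 rose and 5 fell in MP cells fitted alone). Over all rows 2.29% rose and 1.88% fell in LSK cells, and 1.52% and 0.614% in MP cells. The list's medians were 0.09 and -0.08. Of its differences in response 21 of 25 were above 0 (24 of 25 in WT and 16 of 25 in Parp-2-/- arrays), with a median of 0.26. Over all rows 11914 of 22961 were above 0. The list's median LSK minus MP difference was -0.56 log2 units before and -0.28 after irradiation. Srm, the spermidine synthase, rose by 0.66 in LSK cells (adjusted p = 0.032; 0.26 with LSK arrays alone) and read -0.46 in MP cells (adjusted p = 0.24; 0.011 with MP arrays alone), a difference of 1.12 (0.63 to 1.61, adjusted p = 0.19). Utp20, a processome subunit, rose by 1.44 in LSK and 0.85 in MP cells (adjusted p = 9.5e-06 and 0.0016), and Cad, the first enzyme of pyrimidine synthesis, by 0.87 in LSK cells (adjusted p = 0.001), against 0.40 in MP cells. Nop16, a nucleolar protein, read 0.47 in LSK and -0.42 in MP cells (adjusted p = 0.21 in MP cells, and 0.024 with MP arrays alone), a difference of 0.89 (0.47 to 1.32, adjusted p = 0.21).

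NF-kappaB and inflammatory genes were led by Tnip3, an inhibitor of NF-kappaB signalling, which rose by 4.61 in LSK and 3.88 in MP cells (adjusted p = 4.8e-07 and 1.2e-06), and by the co-stimulatory ligand Tnfsf4, which rose by 4.11 and 4.36. Of 34 measured, 7 rose and 2 fell in LSK cells and 4 rose and 3 fell in MP cells (4 and 1, and 7 and 4, fitted alone). Over all rows 2.29% rose and 1.88% fell in LSK cells, and 1.52% and 0.614% in MP cells. Differences were above 0 for 23 of 34, with a median of 0.13, beside 11914 of 22961 over all rows. Leaving out each array in turn gave medians of 0.02 (without pool 1 of unirradiated Parp-2-/- MP cells) to 0.20 and 18 to 25 above 0. The chemokine gene Cxcl10 rose by 3.05 ± 0.42 in LSK cells (adjusted p = 0.00042) and read 1.06 ± 0.42 in MP cells (adjusted p = 0.33), a difference of 1.99 (0.75 to 3.24, adjusted p = 0.41). Tnfaip3, the feedback inhibitor A20, fell by 1.33 in MP cells (adjusted p = 0.023) and read -0.02 in LSK cells, and the early activation antigen Cd69 fell by 1.39 in MP cells (adjusted p = 0.0045) and read -0.27 in LSK cells. Their differences were 1.31 (0.44 to 2.19, adjusted p = 0.48) and 1.11 (0.38 to 1.85, adjusted p = 0.47). For both genes pool 1 lay above pool 2 in every unirradiated group.

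Lymphoid priming markers had a median change of -0.37 in LSK and -0.14 in MP cells. Of their differences in response 2 of 15 were above 0, beside 11914 of 22961 over all rows. The list's median difference was -0.23 (-0.21 in WT and -0.31 in Parp-2-/- arrays). Dntt, the terminal transferase of early lymphoid cells, fell by 1.16 in LSK cells (adjusted p = 0.0084), where it had started 3.84 log2 units above MP cells, and read -0.54 in MP cells. In all 3 of 15 fell in LSK and 1 rose in MP cells, with 1 fall and 2 rises when fitted alone. Among all rows 1.88% fell in LSK and 1.52% rose in MP cells. Stem cell markers had a median difference of -0.10 (-0.17 without pool 1 of unirradiated Parp-2-/- MP cells), and those of macrophages, dendritic cells, neutrophils, mast cells with basophils, and B, T and NK lymphocytes had medians between -0.08 and 0.10. DNA repair lists had median differences of -0.03 for double-strand break repair and 0.01 for base excision repair and the PARP family. Parp1 had a difference of -0.38 (-0.79 to 0.03) and Parp2 of 0.40 (-0.11 to 0.91), with adjusted p of 0.81 and 0.87.

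**Figure D4:**
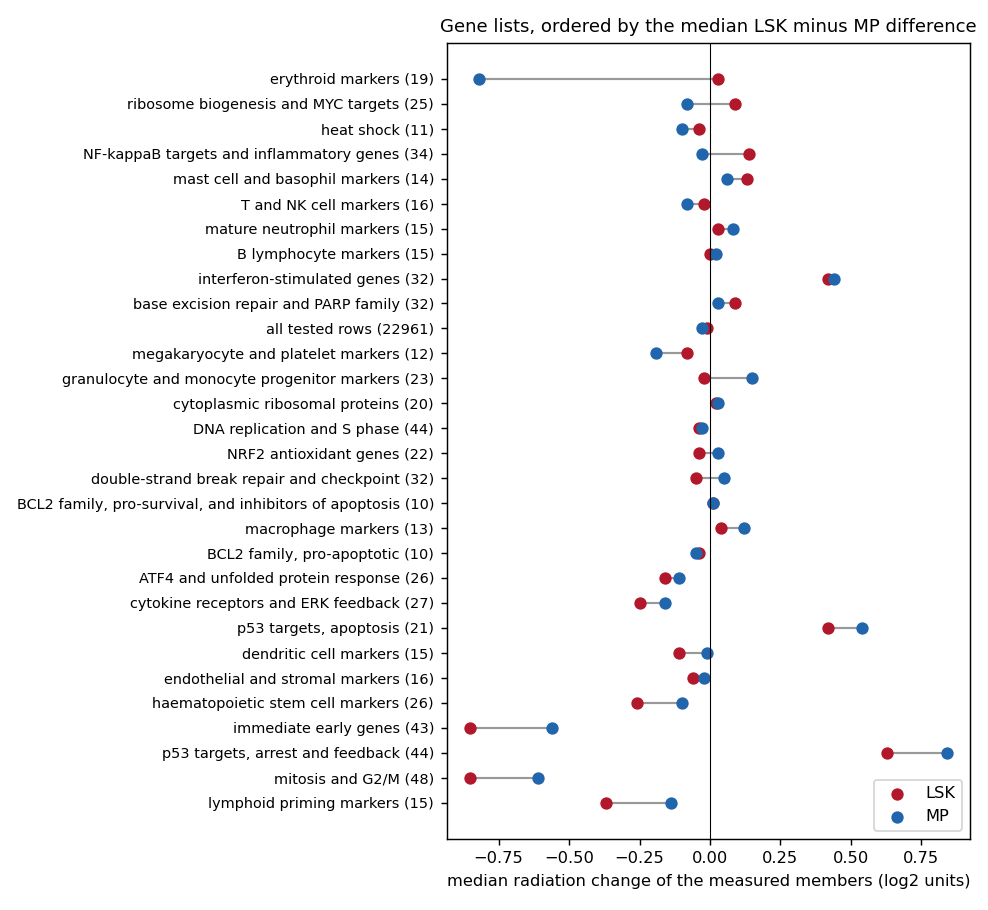
Median irradiated minus unirradiated change (log2 units) of the measured members of each of 29 gene lists and of all tested rows, in LSK (red) and MP (blue) cells, with the number of members or rows in parentheses and ordered by the median difference in response. The erythroid list has the widest gap, at 0.03 and -0.82, while the p53, mitosis and immediate early lists moved in the same direction in both cell types.

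WT and Parp-2-/- mice share no array, so the difference in response could be set side by side in separate mice. It was called in 0 rows in WT (1227 at an unadjusted p under 0.05) and 0 in Parp-2-/- arrays (1260), and the difference between the genotypes was called in 0 rows (928 at an unadjusted p under 0.05; limma). Over all rows the values of the 2 genotypes correlated weakly, at r = 0.14, and 52.5% had the same sign. Of the 291 rows with an unadjusted p under 0.01 in WT arrays, 68.4% had the same sign in Parp-2-/- arrays, and of 294 such rows in Parp-2-/- arrays 67.3% had it in WT arrays. The 16 leading rows had the same sign in both genotypes by the rule that chose them. Plk2 gave -2.19 ± 0.54 in WT and -2.50 ± 0.80 in Parp-2-/- arrays, Nr4a1 -3.04 ± 0.52 and -1.86 ± 0.72, and Gfi1b 1.01 ± 0.26 and 0.97 ± 0.30. For Trib2 the values were 0.87 ± 0.41 and 2.33 ± 0.42, the widest gap among these 4, and the genotype difference of 1.47 ± 0.63 did not pass.

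**Figure D5:**
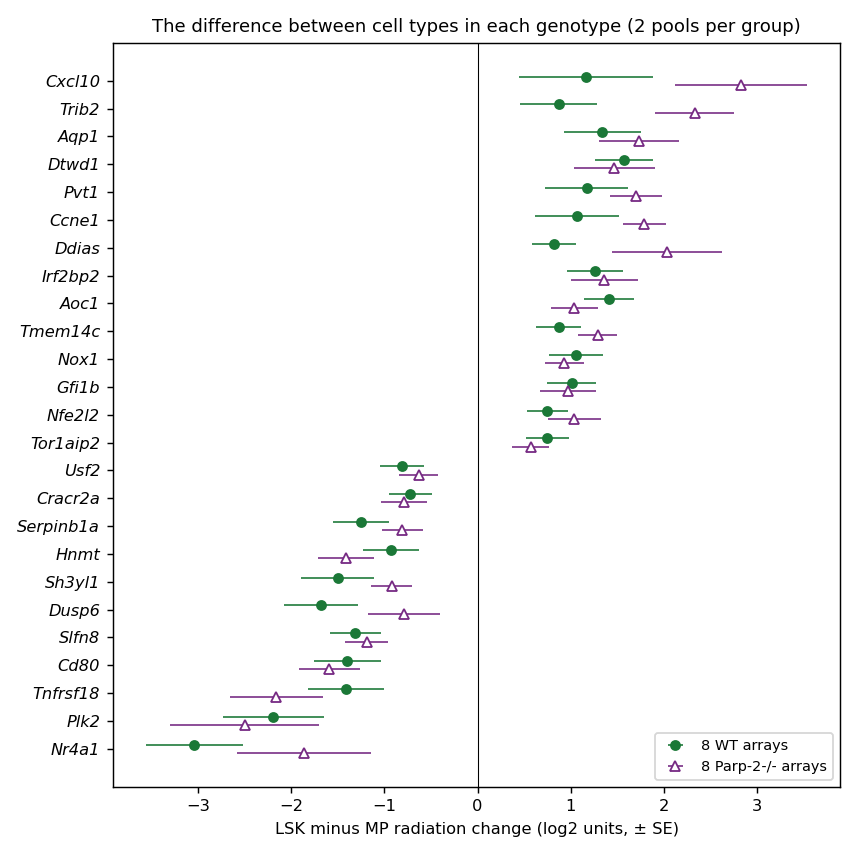
LSK minus MP radiation change (log2 units, points with SE) of 25 genes in the 8 WT arrays (filled circles) and the 8 Parp-2-/- arrays (open triangles), 2 pools per group, ordered by the mean of both. Every gene shown has the same sign in both genotypes, from Nr4a1 at -3.04 and -1.86 to Cxcl10 at 1.16 and 2.83. The rule that chose the 16 leading rows required this of them, and the other genes were picked for the figure.

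The genotype labels were checked with the targeted gene: Parp2 read 5.70 to 6.77 on Parp-2-/- and 7.40 to 7.96 on WT LSK arrays, and 6.74 to 7.11 and 7.98 to 8.40 on MP arrays. Markers followed the cell type labels: the median unirradiated LSK minus MP difference was 0.51 for stem cell, 0.65 for lymphoid priming, -0.80 for granulocyte and monocyte progenitor and -1.37 for erythroid markers. Kit, part of both gates, differed by 0.31 log2 units between unirradiated LSK and MP cells (adjusted p = 0.068). Before irradiation LSK cells were higher in 1430 rows (6.23%) and lower in 2340 (10.2%), and after it in 1769 (7.7%) and 2271 (9.89%); with arrays centred on their medians these were 644 and 2959 before and 664 and 2932 after. Array medians ran from 4.74 to 4.92, and the median standard error of a difference in response was 0.208 log2 units, so that its 95% interval spanned 0.442 to either side.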

How the data were processed

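The authors deposited log2 intensities of transcript clusters on 16 Affymetrix Mouse Gene 1.0 ST arrays; RMA, affy 2.10, limma and R 2.15 are listed, per the submitters' processing notes, without their roles. Log2 was inferred from the range of values, and which arrays were normalised together is not given in the sources used here. Of 34760 rows, the 22961 with a gene symbol were tested as deposited, and genes are named from the 21640 rows with 1 symbol; Entrez identifiers matched RefSeq (GRCm38.p6) for 21553. In limma 3.58.1 (R 4.3.3; 11 residual and 4.33 prior degrees of freedom) 4 means of cell type and irradiation plus genotype were fitted over all 16 arrays, with two-sided tests and Benjamini-Hochberg adjustment over the tested rows; genotypes were also fitted alone (8 arrays each), and their difference with 8 group means. With 4 arrays a mean, the number of arrays limits the precision. Nothing says that pools were separate cultures or litters, so p-values measure the spread between pools. Pool numbers met no rule for pairing across groups and were not used as a block in the main fit.

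The 29 lists (717 genes, 663 measured, 7 through an older symbol; 1 row a gene, of the highest mean) and the genes were chosen with earlier results of these data known. Leading genes were the 8 smallest p-values in each direction with 1 symbol and 1 sign in both genotypes, leaving out predicted genes and small RNAs, since 0 rows passed; then came at most 3 genes a list, those of largest difference, and Parp2, Parp1, Mdm2 and Kit. Gata1, Ermap, Tfrc, Klf1, Alas2, Icam4, Plk1, Cenpf, Phlda3, Polk, Ccng1, Zmat3, Tnfrsf10b, Eda2r, Mx1, Mx2, Fos, Klf6, Tnip3, Tnfsf4, Utp20, Cad and the genes under other observations were named after their values were seen. Trp53, Cdkn1a and Ly6a, also in the rule, had no tested row with 1 symbol and are not reported here. Scripts were tested on simulated data. Alternatives were further quantile normalisation, median centring, a filter on dim rows, trend and robust moderation, a pool block, each genotype or cell type alone, and leaving out each array.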

Additional observations from a re-analysis of the deposited data

Results flagged for a closer look

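Among 64 sets of 4 arrays (16 genes whose array values are printed), 4 had 1 array set apart from the other 3, about the 1 in 20 that chance gives. Ccne1 on pool 1 of unirradiated WT MP cells was at 6.71, against 7.67 to 7.72 on the others. Aqp1 was set apart on the same array, at 7.28 against 8.01 to 8.11. Without that array the differences in response were 1.63 for Ccne1 and 1.69 for Aqp1 (adjusted p = 0.11 and 0.18). Ddias on pool 2 of unirradiated Parp-2-/- LSK cells was at 5.46, against 6.70 to 6.90, and its difference without that array was 1.05 (adjusted p = 0.14). Pvt1 on pool 2 of unirradiated WT LSK cells was at 5.47, against 4.2 to 4.38, and its difference without that array was 1.78 (adjusted p = 0.045).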

How the results depend on the processing

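Alternatives were chosen with earlier results known; those on responding rows and array weights were added after seeing the data. The difference in response was called in 1 row, Aoc1, with the pool number as a replicate block (adjusted p = 0.038), further quantile normalisation (0.023), median centring (0.046) and trend with robust moderation (0.022), and in 53 and 37 rows among responding rows. Leaving out each array gave 0 to 1: Aoc1 without pool 2 of irradiated Parp-2-/- LSK cells and Pvt1 without pool 2 of unirradiated WT LSK cells. The LSK count was 304 in WT, 150 in Parp-2-/- arrays, 416 with array weights per cell type and 208 in LSK arrays alone, and 759 to 1037 without each array. The MP count was 118, 61, 1463 and 1313, and 308 to 535 without each array (322, 308 and 312 without irradiated WT pools 1 and 2 and unirradiated WT pool 2). LSK minus MP counts were 2228 before and 1734 after irradiation with quantile normalisation, 2175 to 4250 and 1942 to 5066 without each array; median centring, which removes a shift of 0.10 in all rows, gave 644 higher and 2959 lower before (1430 and 2340 as deposited) and 664 and 2932 after (1769 and 2271). The genotype difference was called in 0 to 5 rows: 1 and 5 without Parp-2-/- LSK pool 1 of irradiated and unirradiated cells, and 3 and 2 without unirradiated WT LSK pools 1 and 2. The lone array left in a group is then assumed to vary like the others. The pool block moved no other count by over 1.5 times; pool deviations of 28 pairs of groups correlated at -0.17 to 0.23, with 2 above 0.1. For Nr4a1, Nr4a2 and Plk2, however, pool 1 lay above pool 2 in all 4 unirradiated groups. With the block their differences stayed at -2.45, -1.59 and -2.35 (adjusted p = 0.13, 0.49 and 0.17). In this balanced design a block cannot move them. Nor does it model an order of pools that holds in unirradiated groups alone, so the part of that order in these differences was not tested. Tnfaip3 and Cd69, among other genes, had the same order of pools. In unirradiated MP cells Tnfaip3 read 7.67, 6.85, 7.86 and 6.61, and Cd69 read 8.95, 8.04, 8.65 and 7.65. All 118 genes compared kept their sign under 27 alternatives, but part of this was fixed in advance. The pool block, filters on rows, array weights per cell type and trend with robust moderation cannot move a difference in this balanced design. For the 16 leading rows the rule that chose them also set the sign in each genotype. The direction on the linear scale could not be tested on called rows, since 0 were called; 16 of 16 leading rows kept their sign. Levels below the array medians limit what the sizes show.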

Other observations

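Further genes, named after their values were seen, had unequal changes in the 2 cell types. S100a4 and S100a6, neighbouring genes of calcium-binding proteins, had the larger rise in MP cells: S100a4 rose by 2.25 in MP and 1.16 in LSK cells (difference -1.09, adjusted p = 0.20), and S100a6 rose by 1.92 in MP cells and read 0.46 in LSK cells (difference -1.46, adjusted p = 0.41). Alox5, the first enzyme of leukotriene synthesis, rose by 2.04 in MP cells and, from a level below the array medians, by 1.0 in LSK cells (adjusted p = 0.075 with LSK arrays alone), with a difference of -1.04 (adjusted p = 0.26). Id2, an inhibitor of basic helix-loop-helix factors, rose by 1.01 in MP cells and read 0.25 in LSK cells. Aqp9, a channel for water and glycerol, fell by 1.85 in MP cells (adjusted p = 0.00019) and read -0.45 in LSK cells, with a difference of 1.39 in WT and 1.39 in Parp-2-/- arrays (adjusted p = 0.22).

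In LSK cells Cdkn1b, which encodes the cell cycle inhibitor p27, fell by 1.60, against a fall of 0.65 in MP cells (difference -0.94, adjusted p = 0.20), while another row of the gene gave a difference of 0.09. Stox2, a winged helix gene, rose by 2.46 in LSK cells from a level below the array medians and read 0.59 in MP cells (difference 1.86, adjusted p = 0.22). Another row of Stox2 gave -0.11, but its sets of arrays were all below the array medians. Cybb, the catalytic subunit of the phagocyte NADPH oxidase and a relative of Nox1, rose by 2.84 in LSK cells (adjusted p = 0.00021) and read 1.23 in MP cells (adjusted p = 0.11; 0.0032 with MP arrays alone). Its difference of 1.61 (adjusted p = 0.47) turned sign on the linear scale, with an unirradiated LSK minus MP difference of -2.43. Gja1, the gap junction protein connexin 43, rose by 2.41 in LSK and 1.29 in MP cells, and its difference of 1.12 also turned sign on the linear scale.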
